A study of Mus musculus with 1 sample.

Results

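The summits described here were those of a control pulldown that fell inside annotated gene bodies. Of the 317 summits listed for the library, 222 lay inside at least 1 gene of the GENCODE M21 annotation, whatever the type or strand of that gene, and 95 lay outside. That was 70.0% of the list, with a 95% Wilson interval of 64.8 to 74.8%, and all such intervals given here cover counting error only. The library was made from 2B4 cells, a mouse T-cell line, infected with retroviruses from Plat-E packaging cells so that the cells carried Flag-tagged dCas9, a Cas9 that binds DNA without cutting it, together with a mock guide RNA. The cells had been selected for the markers of the vectors, hCD2 and GFP, and stimulated for 24 hours with ionomycin at 1 ug/mL and PMA at 50 ng/mL. Chromatin from 10000000 cells was sheared to about 350 bp, pulled down with the anti-Flag M2 antibody and sequenced to 50 bp. The mock guide served as the control for a guide aimed at the Ccl5 promoter, and the comparison of the 2 guides was not analysed here. There was 1 library and no replicate, so every value below describes that library and no test was made. A list of summits holds no transcript levels, so the T-cell identity of the line could not be checked against marker genes.

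Each summit was a single base with a score, taken here as the −log10 of a q-value, so that a larger score stands for a smaller q-value. In a pulldown of this kind a guide brings dCas9 to a matching site, and a mock guide is meant to have none, so the regions recovered with it are those a locus-specific pulldown would have to be read against. The sequence of the mock guide is not given in the sources used here, so the summits were not searched for matches to it. The transcription factor REST silences neuronal genes outside the nervous system, and it binds a long element, RE1, made of the half-sites TTCAGCACC and GGACAGC set 2 bases apart. Housekeeping genes mostly start in CpG islands, stretches rich in G, C and the dinucleotide CpG, where the chromatin is open in nearly every cell type.

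The members fell into exclusive classes by the sequence at the summit. In 24 of the 222 (10.8%, 7.37 to 15.6) the 100 bases on each side of the summit held the RE1 half-sites in their usual spacing with at most 2 mismatches over the 16 letters. A further 38 lay in repeated sequence, 131 lay within 1 kb of the start of a gene, and 29 had none of these features. The sequences that follow are those of single members from each class, read from the GRCm38 assembly (mm10).

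Several members lay in introns where the RE1 pair occurred more than once in a row. They are shown because runs of pairs had a summit far more often than lone pairs did, as counted further on. The intervals are chr19:4989155-4989225 for Npas4, chr7:44770190-44770267 for Vrk3, chr8:14072722-14072791 for Erich1 and chr19:10403276-10403341 for Syt7 on the plus strand, and chrX:73869505-73869562 for L1cam and chr4:151604585-151604819 for Camta1 on the minus strand. All are read 5′ to 3′ with 5 bases of flank, and capitals mark the letters of each half-site pair that had at most 2 mismatches.
Npas4: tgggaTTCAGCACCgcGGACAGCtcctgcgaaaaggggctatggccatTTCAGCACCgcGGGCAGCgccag
Vrk3: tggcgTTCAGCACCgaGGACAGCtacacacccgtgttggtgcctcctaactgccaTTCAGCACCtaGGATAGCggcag
Erich1: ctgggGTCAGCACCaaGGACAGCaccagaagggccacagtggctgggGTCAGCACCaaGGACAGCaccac
Syt7: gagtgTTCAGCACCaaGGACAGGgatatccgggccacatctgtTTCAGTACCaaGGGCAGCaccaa
L1cam: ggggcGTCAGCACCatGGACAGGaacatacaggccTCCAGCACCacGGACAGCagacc
Camta1: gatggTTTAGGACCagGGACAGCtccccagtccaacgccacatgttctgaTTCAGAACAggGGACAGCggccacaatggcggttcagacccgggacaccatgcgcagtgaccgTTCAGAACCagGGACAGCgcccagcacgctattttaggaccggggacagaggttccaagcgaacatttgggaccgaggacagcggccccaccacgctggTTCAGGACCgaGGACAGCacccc

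A lone pair, and a run of pairs that had no summit, are given beside them. The lone pair in an intron of Crhr2, at chr6:55108502-55108529 on the plus strand, matched all 16 letters. The run in Snap25, at chr2:136714283-136714360 on the plus strand, held an exact pair and another with 2 mismatches but no summit was listed there. Capitals mark the half-sites as above.
Crhr2: gaccaTTCAGCACCacGGACAGCaaaac
Snap25: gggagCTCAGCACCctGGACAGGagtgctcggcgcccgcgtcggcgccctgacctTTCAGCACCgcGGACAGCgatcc

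In other members the half-sites were set at a spacing other than 2 bases. They are shown for Gm33340, which had the highest score of all members (chr12:42972950-42972981, minus strand, 6 bases between the half-sites), for Unc5a (chr13:54971034-54971060, plus strand, 1 base) and for Atp2b2 (chr6:113852549-113852584, minus strand, 10 bases).
Gm33340: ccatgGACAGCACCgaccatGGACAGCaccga
Unc5a: agtggTTCAGCACCtGGACAGCggttc
Atp2b2: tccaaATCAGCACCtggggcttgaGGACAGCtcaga

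The windows below surround the summits of the 5 highest-scoring intronic members of the class near a start that lay within 1 kb of the start of their own protein-coding gene, leaving out windows that touch an annotated UTR. They reach 50 bases to each side of the summit and are read on the strand of the gene: Pcbp2 at chr15:102470922-102471022 and Npepl1 at chr2:174110725-174110825 on the plus strand, and Cnbp at chr6:87850595-87850695, Tardbp at chr4:148626524-148626624 and Zfx at chrX:94122940-94123040 on the minus strand. Capitals mark the word AGGCC on either strand, which reads GGCCT on the opposite strand.
Pcbp2: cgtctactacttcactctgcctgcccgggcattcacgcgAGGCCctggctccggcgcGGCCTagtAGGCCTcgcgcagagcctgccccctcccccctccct
Cnbp: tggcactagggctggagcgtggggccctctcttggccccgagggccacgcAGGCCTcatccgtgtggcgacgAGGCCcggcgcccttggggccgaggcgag
Npepl1: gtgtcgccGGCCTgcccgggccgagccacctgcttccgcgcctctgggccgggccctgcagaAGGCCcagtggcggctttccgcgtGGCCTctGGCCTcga
Tardbp: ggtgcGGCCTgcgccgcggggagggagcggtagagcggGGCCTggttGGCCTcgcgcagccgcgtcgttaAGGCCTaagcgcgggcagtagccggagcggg
Zfx: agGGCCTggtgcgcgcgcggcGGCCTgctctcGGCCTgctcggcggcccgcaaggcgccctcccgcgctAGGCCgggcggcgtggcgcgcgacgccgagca

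The last window, chr9:3000360-3000460 in the lincRNA gene Gm26870 (minus strand), stands for the largest family of members in repeated sequence. It is an A-rich tandem repeat of the kind known as the mouse major satellite, and nothing in it is capitalised.
Gm26870: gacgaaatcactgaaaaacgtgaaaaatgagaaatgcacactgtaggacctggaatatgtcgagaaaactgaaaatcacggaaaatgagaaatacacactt

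The 222 members touched 224 annotated genes, which was 0.404% of the 55450 genes of any type. Of these, 191 were protein-coding (0.870% of the 21951 annotated), 14 were lincRNA genes, 8 antisense genes and 4 unprocessed pseudogenes. Of the members, 195 lay inside 1 gene each and 27 lay where 2 genes overlap. The protein-coding genes that held a summit had a median length of 42328 bases, against 17403 over all protein-coding genes. Within the genes 123 members lay in introns, 41 in UTRs, 35 in coding sequence and 23 in exons of noncoding transcripts.

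The scores of members ran from 2.24 to 266 with a median of 8.57, and those of the 95 summits outside genes from 3.03 to 320 with a median of 18.8. Scores of at least 100 were found for 8 of 222 members and for 20 of 95 summits outside genes, 18 of the latter in 1 family of 35 summits that share sequence, which held 33 of the 95 and 2 members. The lowest scores belonged to Papola (2.24), Plagl2 (2.52), Gm21847 (2.79), Cdc27 (2.90) and Zfp804b (3.003). The classes differed in score. Members with the RE1 pair had a median of 37.6, those in repeated sequence 19.1, those near a start 7.26 and the rest 8.54. Of the 56 highest-scoring members 19 held the RE1 pair, and of the next 56 only 3 did.

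**Figure D1:**
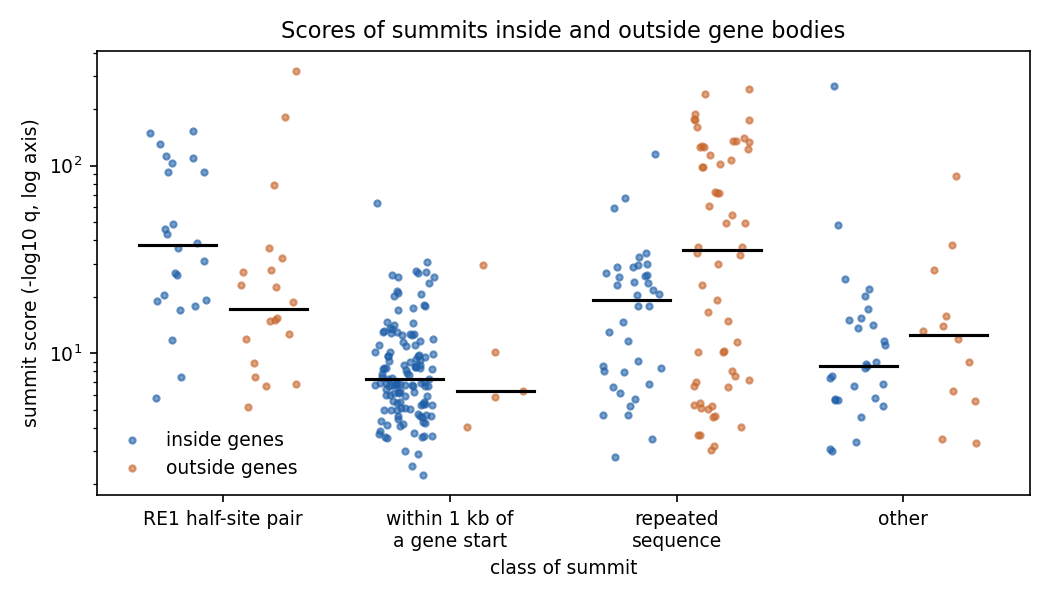
Score of each of the 317 summits (−log10 q, log axis) by class, for summits inside genes (blue) and outside genes (orange); black lines are medians and points are spread sideways for legibility. Inside genes the RE1 class had the highest median, 37.6, and the class near a start the lowest, 7.26.

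The RE1 pair was present in 24 of 222 members and in 20 of the 95 summits outside genes (21.1%, 14.1 to 30.3). Cut into tiles of the same length, the gene bodies of the genome held such a pair in 1461 of 6064936 tiles, or 0.0241%. Of the 24 members, 20 lay in introns, 3 in UTRs and 1 in coding sequence, all 24 in protein-coding genes and in sequence found once in the genome. The pair lay close to the summit, with a median distance of 12.5 bases from its centre and 17 of 24 within 20 bases. It ran on the strand of the gene in 17 cases and on the opposite strand in 7. Only 3 of the 24 were within 1 kb of the start of their own gene, so most were well inside the transcribed region.

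An exact pair was found at 4 members. The strongest was in Npas4, which encodes an activity-dependent transcription factor of neurons, with a score of 154 and the centre of the pair 3.5 bases from the summit. Smim17 scored 131, Vrk3, a member of the vaccinia-related kinase family, 20.4, and Crhr2, a receptor for corticotropin-releasing hormone and related peptides, 11.8.

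A single mismatch was found at 10 members. Neuronal genes among them were Rbfox3 (92.9), whose product NeuN marks mature neurons, Camta1 (112), a calmodulin-binding transcription activator, Syt7 (16.9), a calcium sensor of vesicle release, L1cam (19.2), an adhesion molecule of axons, and Glra1 (36.4), a subunit of the glycine receptor. The others were Erich1 (109), the retinal gene Rtbdn (46.0), Trappc9 (38.7), a subunit of a vesicle-tethering complex, Xkr7 (17.9), whose summit lay in coding sequence, and Nsun3 (7.44), an RNA methyltransferase gene. The median over these 10 was 37.6.

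The remaining 10 had 2 mismatches and a median score of 37.1. They were Celf4 (149), an RNA-binding protein of neurons, Phf21b (103), Garnl3 (92.3), Xkr6 at 2 places (49.1 and 43.0), Nsf (31.1), the ATPase that takes SNARE complexes apart, Tas1r3 (26.9), a taste receptor subunit, Cdh13 (26.2), a cadherin, Cd300e (19.03), a receptor of myeloid cells, and Art3 (5.74). The scores at 1 and at 2 mismatches thus covered nearly the same range, 7.44 to 112 and 5.74 to 149. The share of gene-body pairs with a summit within 100 bases did differ. It was 5.71% at 0 mismatches, 5.10% at 1, 1.73% at 2 and 0.147% at 3.

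Summits were listed at a larger share of runs of pairs than of lone pairs. Pairs with at most 2 mismatches whose starts lay up to 100 bases from the next were joined into runs, a grouping chosen after the values of the members had been seen. Gene bodies held 1577 lone pairs, of which 10 had a summit within 100 bases (0.634%, 0.345 to 1.16). They held 23 runs of 2 or more pairs, of which 14 had a summit (60.9%, 40.8 to 77.8). For runs of exactly 2 pairs it was 8 of 14, and for runs of 3 or more 6 of 9. Even of the 66 lone pairs without any mismatch only 1, that in Crhr2, had a summit within 100 bases. A further exact pair in Vrk3, at chr7:44770403-44770420, counted among those without, being past that reach of the Vrk3 summit at 44770249.

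Outside genes the counts were alike, with 8 of 1113 lone pairs and 12 of 18 runs having a summit. Within the runs of gene bodies every pair ran in the same direction, in the 14 with a summit as in the 9 without. From the start of 1 pair to the next was 26 to 99 bases in the runs with a summit, with a median of 50.0, and 12 to 79 bases with a median of 33.0 in those without.

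**Figure D2:**
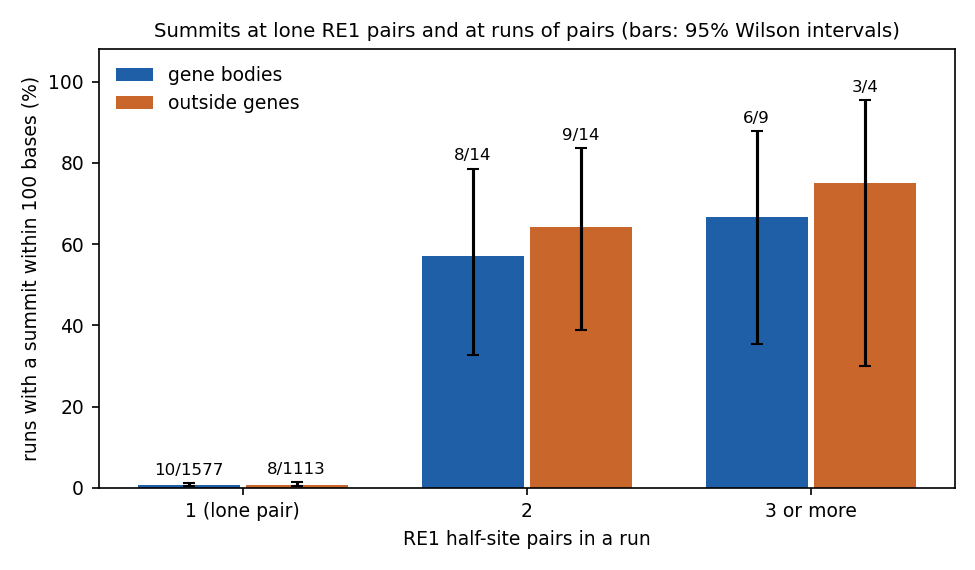
Percent of lone RE1 pairs and of runs of 2 or of 3 or more pairs (at most 2 mismatches each) that had a summit within 100 bases, in gene bodies (blue) and outside genes (orange); bars start at 0, error bars are 95% Wilson intervals and the fractions above them give the counts. Lone pairs had a summit in 0.634% and 0.719% of cases, and the runs in 57.1 to 75%.

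The longest run with a summit was that of Camta1, with 4 pairs over 225 bases and a score of 112. Smim17 (score 131), Phf21b (103), Rbfox3 (92.9) and both places in Xkr6 held runs of 3. Runs of 2 with a summit lay in Npas4, Erich1, Rtbdn, Vrk3, L1cam, Cd300e, Xkr7 and Syt7, with scores from 154 down to 16.9. The 9 runs of gene bodies without a summit lay in Cmtm1, Cklf, Golga7b, Barhl1, Dlgap3, Fbxw11, Iqsec3 and Snap25 and at a further place in Camta1. This Camta1 run, at chr4:151605098-151605148, lay close to the run with a summit, which ended at 151604814. Whether both lay in the same enriched region was not tested. Snap25 encodes a SNARE protein of synapses and is a known target of REST. The runs in Cmtm1 and Cklf, neighbours on chromosome 8, repeated at a fixed step of 33 bases, and no run with a summit had a step of that length.

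Of the 24 members with the pair, 14 held at least 2 pairs within 100 bases of the summit, with scores of 16.9 to 154 and a median of 47.5. The other 10 held 1 pair and scored 5.74 to 149 with a median of 29.0. For 4 of those 10, among them Celf4 and Garnl3, further pairs appeared when 3 mismatches were allowed. The 6 lowest-scoring members with the pair were Cd300e, Xkr7, Syt7, Crhr2, Nsun3 and Art3, and the last 3 of these held a lone pair even then.

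The half-site TTCAGCACC alone gave a similar picture. At least 3 copies of it, on either strand and with at most 1 mismatch, were found within 100 bases of the summit in 10 of 222 members (4.50%), in 34 of the 95 summits outside genes (35.8%) and in 0.00663% of gene-body tiles. Of the 34, 33 belonged to the family of 35 summits, and without it the count outside genes was 1 of 62 (1.61%). Of the 10, 5 held the pair in its usual spacing and 5 did not.

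Those 5 were Unc5a and Cacng2, Gm43624 and Gm48544, and AC026385.1. Unc5a encodes a netrin receptor and scored 115, and its half-sites matched every letter but stood 1 base apart. Cacng2, the gene of stargazin, an auxiliary subunit of AMPA receptors, scored 63.5 at a summit in its UTR, 80 bases from its start. Gm43624 (67.4) and Gm48544 (59.2) were the 2 members of the family of 35 summits. AC026385.1 scored less, 10.9995.

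With a spacing other than 2 bases, half-sites with at most 1 mismatch in all occurred in 7 of 222 members without the usual pair (3.15%) and in 36 of the 95 summits outside genes (37.9%), 32 of them in the family of 35, which leaves 4 of 62 (6.45%). Of gene-body tiles 0.0236% held such half-sites at any spacing from 0 to 20 bases, the usual one included. Besides Unc5a, Gm43624, Gm48544 and AC026385.1 the 7 members were Atp2b2 (24.99), the gene of a plasma membrane calcium pump, Celsr3 (6.81), an atypical cadherin, and Gm12239 (3.35). The member with the highest score, Gm33340 (266), held half-sites 6 bases apart with 2 mismatches. Allowing any spacing from 0 to 20 bases and 2 mismatches, all 10 of the 10 highest-scoring members held a pair, 14 of the highest 15, and 34 of all 222 (15.3%). Such a pair was also held by 57 of the 95 summits outside genes (60.0%), or 24 of 62 without the family of 35 (38.7%), and by 0.325% of gene-body tiles.

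The 131 members near a start and not in the other classes were of another kind. The windows of 250 bases on each side had a median GC content of 73.3% and a median ratio of observed to expected CpG of 0.915, against 51.7% and 0.300 for the members with the RE1 pair. Their scores ran from 2.24 to 63.5, with 63.5 being that of Cacng2, and the middle of the range was narrow, with quartiles of 5.33 and 11.3.

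A start of any gene lay within 1 kb of 157 members (70.7%, 64.4 to 76.3) and of 10 of the 95 summits outside genes. For 129 members it was the start of their own protein-coding gene, 9 of them in repeated sequence and 3 with the RE1 pair. They lay a median of 344 bases downstream of it, with quartiles of 254 and 478 and a range of 15 to 926. The start of a gene is here the outermost end of its annotation, and many genes have further transcripts that start inside it. That the summits lay downstream of the outermost start follows from the choice of summits inside genes. From the nearest start of any annotated transcript, on either side, the same 129 lay a median of 198 bases away, with quartiles of 119 and 306 and a range of 3 to 760. In Pan3 the distance was 767 bases from the start of the gene and 32 from the nearest transcript start, and in Kcmf1 it was 811 and 85. Counted from the start of the gene, there were 3 within the first 100 bases, in the next 100 there were 11, and then 35, 28 and 22 in the following steps of 100, leaving 30 between 500 and 1000.

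**Figure D3:**
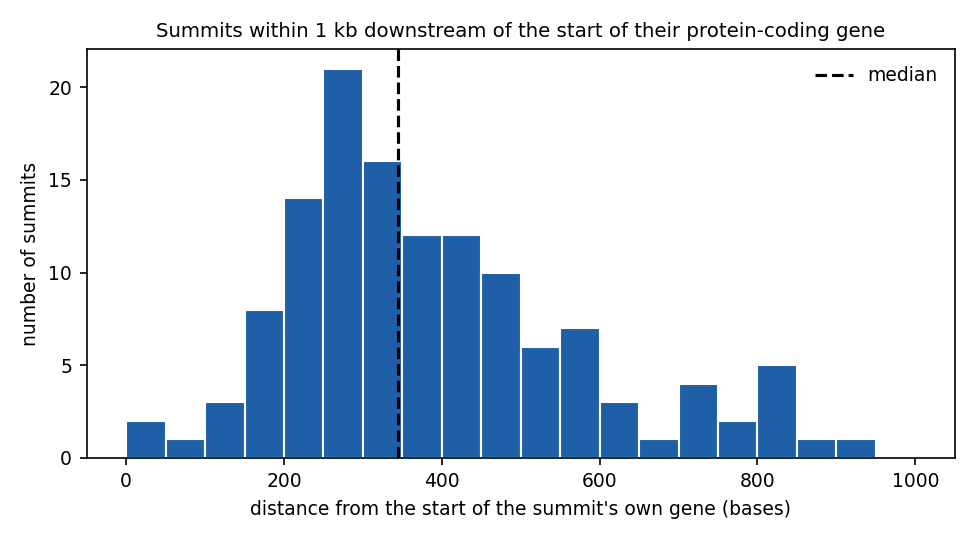
Number of members by distance in bases from the start of their own protein-coding gene, in steps of 50 bases, for the 129 members within 1 kb of it; the dashed line is the median, 344. The start is the outermost annotated one, and the first 100 bases from it held 3 members and the stretch from 200 to 500 held 85.

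Around the end of the first exon the placement was mixed. Of the 129, 68 lay in a first exon of some transcript, 57 lay in introns only, and 51 lay within 100 bases of the end of a first exon. Coding sequence covered 33 of the summits and 5′ UTR covered 35.

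The windows of 150 bases on each side of these summits were set beside windows of the same length centred 344 bases downstream of every protein-coding start. The median GC content was 74.4% at the members and 56.5% over all 21949 starts. The CpG ratio exceeded 0.6 in 97.7% of member windows and in 43.4% of the others. Of these windows, 3330 had a CpG ratio over 0.6 and a GC content of at least 70.1%, the lower quartile of the members. They were kept as a matched set. The same cuts were not applied to the members, so members of lower GC content stayed in, among them Gm10801 at 33.2%. The matching was thus on 1 side only.

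All 2080 words of 6 letters, each counted with its reverse complement, were then ranked by the difference between their share of member windows of 50 bases on each side and their share of matched windows. The ranking was made after the windows of single members had been read. The 5 words at the top shared the core AGGCC. The highest of them, AGGCCC, was found in 42.6% of members and 16.25% of matched windows, and the others were CAGGCC in 41.1% and 18.7%, AGGCCG in 39.5% and 19.1%, GAGGCC in 36.4% and 20.2%, and TAGGCC in 17.8% and 2.22%. The 2 words at the other end of this ranking were CGCGCC, in 21.7% of members and 37.4% of matched windows, and CCGCCC, the reverse complement of the core that Sp1 binds, in 26.4% and 42.0%. Their place there depended on the matched set. Over all shifted windows with a CpG ratio over 0.6, whatever their GC content, CGCGCC was found in 21.5% and CCGCCC in 25.9%, close to the shares of the members, and over all shifted windows in 9.92% and 13.4%. The top of the ranking moved as well. Against the windows with a CpG ratio over 0.6, the 5 words with the core AGGCC ranked 1, 4, 5, 8 and 22. There GCGGCC and CGGGCC, which lack the core, ranked 2 and 3.

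AGGCC itself was found within 50 bases of the summit in 85 of the 129 members (65.9%, 57.4 to 73.5), in 37.99% of the matched windows and in 23.6% of the windows at all starts. At least 3 copies within 100 bases occurred in 58 of 129 members (45.0%), against 10.8% and 3.804%. Within 25 bases of the summit it was found in 63 of 129 members and 21.1% of matched windows. By class, it was found within 50 bases in 91 of the 131 members near a start and 5 of the 24 with the RE1 pair. It was found in 6 of the 38 in repeated sequence and 10 of the 29 in none of these classes. Of the latter, the 17 with a CpG ratio over 0.6 held it in 9 cases (52.9%). These classes share members with the 129. The word was found at 11 of the 95 summits outside genes. AGGCC lies in the sequence bound by the zinc finger protein ZFX, a factor known to bind CpG-island promoters downstream of the start, but binding of ZFX or of any other factor was not measured here.

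**Figure D4:**
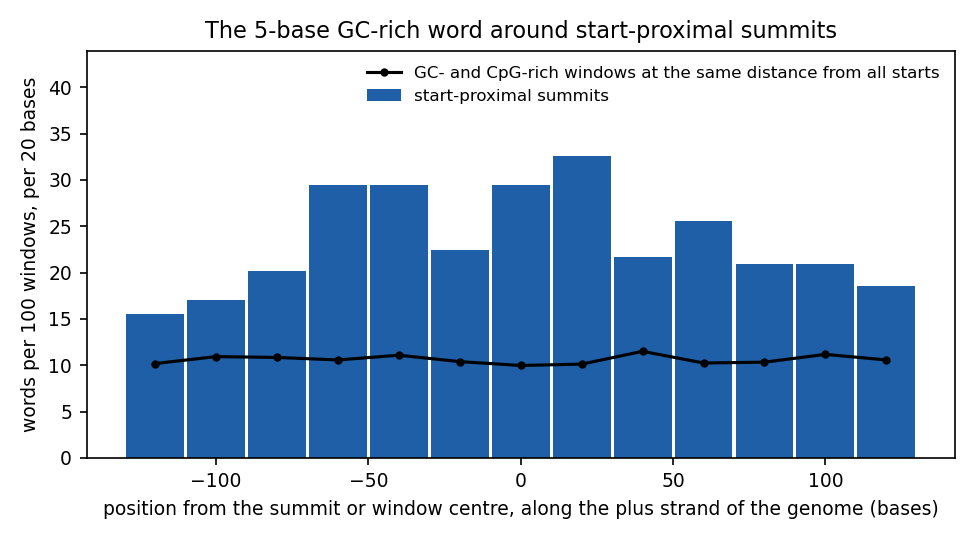
Copies of the word AGGCC (either strand) per 100 windows in steps of 20 bases, around the 129 summits near their own protein-coding start (bars) and in 3330 GC- and CpG-rich windows centred 344 bases downstream of protein-coding starts, those of the members included (line). Positions run along the plus strand of the genome whatever the strand of the gene, and the bars stood between 21.7 and 32.6 in the 7 steps within 70 bases of the summit, without a single peak at it, and at 15.5 and 18.6 at the ends of the plot, while the line stayed between 9.97 and 11.5.

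Copies of the word were spread broadly around the summit and fell off towards the ends of the windows. The 129 windows of 150 bases on each side held 429 copies, 95 of them within 25 bases of the summit. Distances in this paragraph run to the third letter of a copy, while the counts above took whole words inside the window. The nearest copy lay a median of 23.0 bases away among the 119 windows with any. Scores differed little with it, with a median of 7.70 where a copy lay within 50 bases and 7.19 where none did. Apart from Cacng2, Rtbdn and Glra1, the highest-scoring single-copy members of the group were Pcbp2 (30.6), an RNA-binding protein, Casd1 (27.4), a sialic acid acetyltransferase, Cnbp (26.3), a zinc finger nucleic acid-binding protein, Npepl1 (25.6) and Pan3 (23.7), a subunit of a deadenylase. Tardbp (21.5), encoding TDP-43, and Zfx (20.9) followed.

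Of other words searched in the windows of 150 bases on each side, CCAAT, the word of NF-Y, was found in 6.20% of members and 36.7% of windows centred on starts, and in 17.4% of CpG-rich windows shifted by 344 bases. The Sp1 word GGGCGG was in 71.3%, 45.5% and 58.5% of the same sets, which are not matched for GC content, and the direction turned in the windows of 50 bases on each side against the matched set, as given above. CCGGAAG, an ETS word, was in 10.1%, 11.5% and 8.07%. The AP-1 word TGANTCA was in 0.775%, 5.95% and 2.65%, and the CRE word TGACGTCA was in 0 members. Each word was searched on both strands and a match is only a match of letters.

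Among the lists of genes with common cellular functions, splicing had the largest share with a member. Pre-mRNA splicing genes held a member in 8 of 72 cases (11.1%, 5.74 to 20.4), against 0.870% of all protein-coding genes, and all 8 summits lay within 1 kb of the start of their gene. They were Srsf4 (12.9), Srsf6 (6.74), Hnrnpa2b1 (6.80), Hnrnpul1 (4.99), Prpf8 (11.5), Rbm39 (5.36), Sfpq (4.26) and Ewsr1 (8.39). None of them held the RE1 pair. Of 37 translation factor genes 2 held a member, Eef1a1 (6.65) and Eif4g2 (7.70), and of 84 ribosomal protein genes 2, Rpl19 (6.77) and Rps27a (6.94), where the overall share gives 0.322 and 0.732 genes. A chaperone gene, Cct6a (3.56), and a transcription machinery gene, Nrf1 (6.96), held 1 each, of 30 and 55 genes where it gives 0.261 and 0.479. Except for splicing and translation factors (1.495 to 17.7%), the intervals of these lists held the overall share.

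Of 222 neuronal genes on the lists, 9 held a member (4.05%, 2.15 to 7.52), against 0.870% of all protein-coding genes, a share that would give 1.93 genes. Genes of these lists had a median length of about 59570 bases, against 17403 over all protein-coding genes, and the part of gene length in the count was not tested. The RE1 pair was present in 6 of them, Camta1, Celf4, Glra1, L1cam, Rbfox3 and Syt7. The other 3 were Atp2b2, Cacng2 and Celsr3, each with half-sites at another spacing or in several copies. Only Cacng2, Celsr3 and Glra1 had their summit within 1 kb of the start.

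The lists of T-cell and activation genes held no member, a count that lists of this length also give at the share over all protein-coding genes. The counts were 0 of 33 T-cell identity genes, 0 of 49 activation and immediate early genes, 0 of 36 CC chemokine and receptor genes, 0 of 9 RUNX and CBF beta genes and 0 of 17 genes of REST and its corepressors. At the 0.870% of all protein-coding genes these lists would hold 0.287, 0.427, 0.314, 0.0784 and 0.148 genes with a member, less than 1 each, and the upper ends of the intervals ran from 7.27% to 29.9%. There were likewise 0 of 39 cell cycle and 0 of 67 canonical histone genes, where that share gives 0.340 and 0.584, and 2 of 394 Zfp genes (0.508%, 0.139 to 1.83), where it gives 3.43, namely Zfp746 (12.99) and Zfp804b (3.003).

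**Figure D5:**
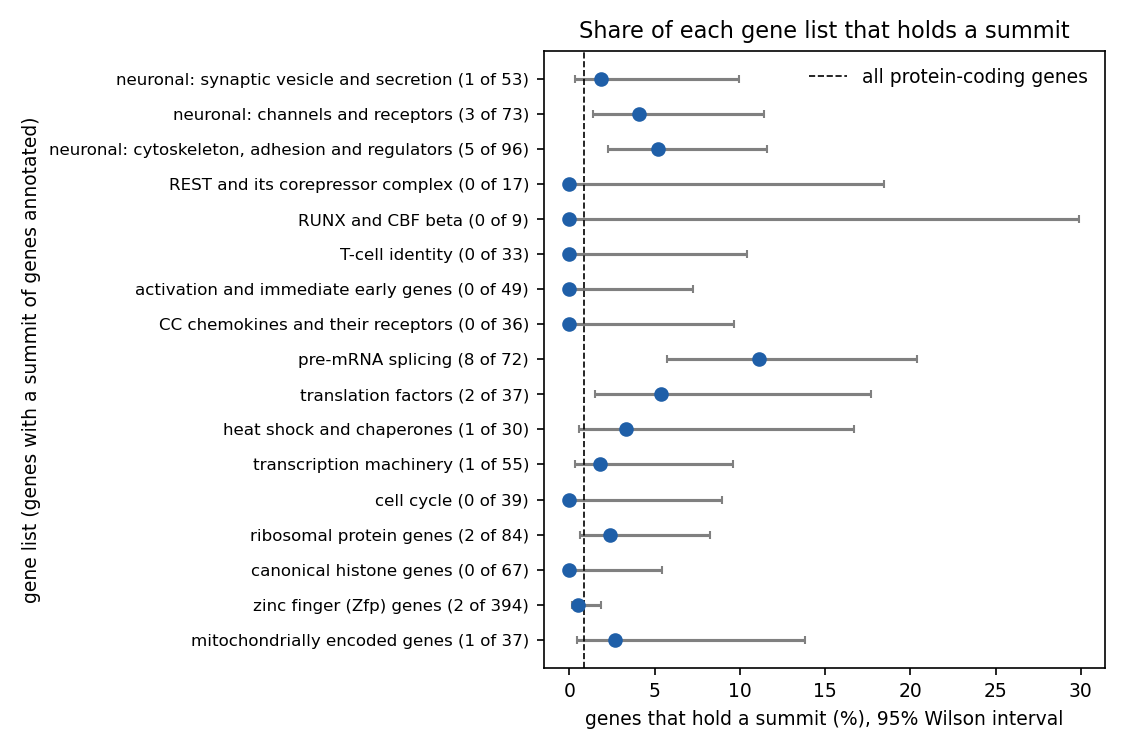
Percent of the annotated genes of each list that held a member, with 95% Wilson intervals and counts in the labels; the dashed line is the value over all protein-coding genes, 0.870%. Splicing genes stood highest at 11.1%.

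In repeated sequence lay 38 members (17.1%, 12.7 to 22.6) against 58 of the 95 summits outside genes. Repeated means here that the 50 bases at the summit occur more than once in the assembly or that the window of 250 bases on each side shares a word of 25 bases with another summit. In 25 of the 38 the 50 bases at the summit occurred more than once, so reads of that length cannot be assigned to 1 place and the genes named for these are uncertain. The other 13, Unc5a among them, shared a word with another summit but their 50 bases at the summit occurred once. Of the 13, 2 shared a word only because their windows overlap, and without them 36 members lay in repeated sequence. The largest family among members had 17 members of 18 summits on 3 chromosomes, with scores of 14.6 to 32.5, a mean GC content of 35.2% and 91.0% of the window marked as repeat in the assembly.

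Of this family 12 lay in Gm26870 on chromosome 9, with scores of 20.3 to 29.6. The rest were in predicted genes such as Gm10800 (29.9), Gm10801 (32.5 and 14.6) and Gm21738 (23.0), and 4 of the 5 highest-scoring members in coding sequence were Gm10800, Gm17535 (28.9), Gm10719 (26.7) and Gm10717 (24.1) of this family. The fifth, Pan3 (23.7), lay in single-copy sequence.

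A second family, in the antisense genes Gm21847 and Gm30613 on chromosome 5, had 4 summits, 3 of them members, with scores of 2.79 to 13. Gm21847 held 4 members in all. Paip1, encoding a partner of the poly(A)-binding protein, held the 2 members that shared a word only through overlapping windows (6.10 and 8.30), with 387 bases between the summits. The other genes with 2 members in single-copy sequence were Camta1 (112 and 14.2), Celf4 (149 and 21.9), Xkr6 (49.1 and 43.0), Tardbp (21.5 and 5.13), Zmynd11 (13.1 and 8.33) and Gm20388 (10.9 and 8.55). From the start of the gene the summits lay 445 and 926 bases away in Tardbp and 545 and 1241 in Zmynd11, and in Camta1, Celf4 and Xkr6 both lay in introns far from it. The Celf4 summit that scored 21.9 was 602 bases from the nearest transcript start.

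A mitochondrial tRNA gene, mt-Tl1, held a summit with a score of 25.5. A nuclear pseudogene on chromosome 1, Gm28439, scored 34.2 and shared 477 words of 25 bases with the mitochondrial genome, and 2 members in Myo3a (10.2 and 17.9), 1 of them also in Gm13341, shared 352 and 358. These nuclear members belonged to no family of summits, so the words were shared with the mitochondrial genome as a whole. The part of mitochondrial reads in their scores was not tested.

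Chromosome 11, which carries the locus of the targeting guide, held 22 members of 23 summits with a median score of 7.16. The highest were Rbfox3 (92.9), Glra1 (36.4), Nsf (31.1) and Cd300e (19.03), all with the RE1 pair, and Tlk2 (17.98).

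Of the 29 members in none of the classes, 17 had a CpG ratio over 0.6 and AGGCC lay within 100 bases of the summit in 15 of these 17 (88.2%, 65.7 to 96.7), against 61.4% of the matched windows and 51.5% of the CpG-rich ones. Within 50 bases it lay in 9 of 17 (52.9%, 31.0 to 73.8), against 37.99% of matched windows. Within 25 bases it lay in 6 (35.3%, 17.3 to 58.7), against 21.1%. At these shorter distances the intervals held the matched share. Of the 17, 15 lay within 1 kb of the start of an annotated transcript, though not of the outermost start of a gene. Rdx (13.6) was 1164 bases from the nearest gene start and 66 from the nearest transcript start, Akt1 (8.71) 1122 and 182, and Ptbp2 (8.54) 1609 and 377, while Anp32b (14.96) was 1545 bases from both, names picked after their values were seen. The remainder were mostly introns of low CpG ratio, among them Gm33340 (266), C230014O12Rik (48.0), Cadm3 with Aim2 (20.1), Ctss (10.9995) and Adcy5 (5.77). In C230014O12Rik, Cadm3 and the second site of Celf4 the best RE1 pair had 3 mismatches, just past the limit used.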

How the data were processed

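Summits came from 1 library, deposited as a list of single-base intervals that each carry a peak name and a score. Per the labels, the authors aligned reads with Bowtie 1.1.2 and called peaks with MACS2 2.1.1 on mm10; the study's notes on peak calling name the same MACS2 release, while its software list names another and bowtie2, so the aligner is not settled in the sources used here, nor is a control for the caller. The score column is unnamed and is taken as the deposited −log10 of the q-value that the authors' peak caller writes to summit files. The file holds no read counts, so depth is unknown, and it lists only regions past the caller's threshold. The experiment was repeated by the study and the representative library was used here.

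Summits were placed on GENCODE M21 genes and on the GRCm38 assembly with Python 3.11.15, pandas 2.3.3 and numpy 2.4.6. The RE1 pair was searched on both strands with at most 2 mismatches within 100 bases of the summit, and the search was tested on simulated data. GC content, CpG ratio and repeat-masked share used 250 bases on each side. Families joined windows that share a word of 25 bases, leaving out words with fewer than 8 different 3-base words. Intervals are Wilson 95% (scipy 1.17.1). Genes were named by rule: the 15 highest scores, every RE1 member, every list gene with a member, genes with 2 or more members, the 5 highest in coding sequence and on chromosome 11, the 3 largest families and the 5 lowest scores; other names are said to be chosen on their values or stand beside a count. Members and lists were chosen with earlier results of these data known, and the runs of pairs and the word AGGCC were counted after the data had been examined. Alternatives varied the score, merging of summits and families, chromosomes, gene type, windows, distances and mismatches. Whether the recovered regions also appear with the other guide was not analysed here.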

Additional observations from a re-analysis of the deposited data

How the results depend on the processing

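Of 58 alternatives to 9 values, 38 stayed within the 95% interval of the value as reported and 20 left it. The values were shares, a mean and a median, which have no direction to change, and no test was made. With only summits at or above the median score of the whole list, 60.4% of summits lay in gene bodies, 58.3% of members lay within 1 kb of a start, 22.9% held the RE1 pair, mean GC content was 56.9% and the median score was 20.8. Counting families once gave 79.0% in gene bodies and a mean GC content of 66.3%, and protein-coding genes alone gave 61.2% and 65.8%. The share within reach of a start was 54.95% at 500 bases, 83.8% at 5 kb and 81.1% for starts of any annotated transcript. With at most 1 mismatch 6.31% of members held the pair.

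The settings for runs and for AGGCC were chosen after seeing the data. With at most 1 mismatch, 83.3% of 6 runs and 2.56% of 351 lone pairs had a summit; with 3, 19.8% of 91 runs and 0.0659% of 13663 lone pairs. Joining only up to 50 bases gave 1.25% of lone pairs, since pairs of longer steps then count as lone. AGGCC lay within 25 bases of the summit in 48.8% and within 100 bases in 85.3% of start-proximal members, since the window sets what can be found. No paired analysis was possible because there was 1 library. The list holds no read counts, so a place without a summit may be one below the threshold, and without a replicate the spread of scores between libraries is unknown.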
